A study of Mus musculus with 6 samples.

Results

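Imprinted genes were described in single cells of the embryonic mouse heart region: 32 named genes of the 32285 in the deposited gene list, each matched by its symbol. They cover the Dlk1-Dio3 region (Meg3, Rian, Mirg, Dlk1 and Rtl1), the Peg3 region (Peg3, Usp29 and Zim1), Peg10 with Sgce, and Mest. They also cover the Kcnq1 region (Cdkn1c, Phlda2, Kcnq1ot1, Kcnq1 and Ascl2), the Igf2r region (Airn and Slc22a3) and the Prader-Willi region (Snrpn, Ndn, Magel2, Mkrn3 and Peg12). The others are Grb10, Plagl1, Peg13, Nnat, Impact, Zdbf2, Nap1l5, Slc38a4 and Gnas. All 32 were found. They are set by their names, and no measured value enters the rule. The list was chosen with earlier results of these data known.

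An imprinted gene is read mainly from the chromosome of 1 parent, because DNA methylation laid down in the egg or the sperm marks a control region near it. Many such genes lie in groups that share a control region, and several act on growth of the fetus: genes read from the paternal copy often promote it and genes read from the maternal copy often restrain it. Long noncoding RNAs of these regions, such as Kcnq1ot1 and Airn, silence neighbouring genes on the chromosome they are read from. Counts in these files add both parental copies together, so nothing here measures the imprint itself.

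Cells came from the microdissected cardiogenic region of wild type C57BL/6 embryos at E10.5. Normal glycemic males had been mated to females pretreated with vehicle, which stayed normal glycemic (3 samples), or with streptozotocin, which is toxic to pancreatic beta cells and made them hyperglycemic (3 samples). Droplet libraries were made with a 10x Genomics 3′ kit, although the sample descriptions name a chromatin assay. The deposited matrix pools the 6 samples, and its barcodes end in a library number that no file used here pairs with a sample, so vehicle and streptozotocin were not compared and the libraries are given one by one.

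Of 53362 barcodes, 35962 had at least 2500 detected genes and at most 10% mitochondrial UMIs (unique molecular identifiers, each marking 1 captured RNA molecule). Libraries held 4903 to 7136 of these cells, with a median of 30533 to 35634 UMIs per cell. A cell was put in a class when it carried at least 2 UMIs of each of several of the class's 8 marker genes. Some gates yielded to others, so a cell passing both no longer counted for the yielding class. After this step 18920 cells (52.6%) were in 1 class, 14490 in none and 2552 (7.10%) in more than 1. The last were left out, and no cells were removed by a doublet score. No imprinted gene was a marker. Library 1 had 383 counts of Xist per 1000000 UMIs (CPM) and the others at most 0.342. A sequence shared with another library's barcode was found for 2890 retained cells.

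Expression is given as CPM of the UMIs summed over a class in 1 library, as the lowest, the median and the highest library with at least 20 cells of the class. A total of 14 classes had such cells in at least 3 libraries. Besides 11 classes called after their markers, 3 are named only by their gate, because their leading genes did not settle the type. The smooth muscle-gated class (116 cells, 3 libraries) was led by Acta1, Hand1, Ankrd1 and Actc1, the branchiomeric muscle-gated class (651 cells) by Emx2, Foxl2 and Nr5a2, and the cushion-gated class (495 cells) also by the endothelial genes Icam2 and Ptprb. The other 11 names rest on the gate markers. The glial and migratory crest-like class was led by Sox2ot, Insc, Nell2 and Dcc. Leading genes of the paraxial mesoderm-like class were Pcp4, Lbx1, Fap and Foxd1. An imprinted gene is called higher or lower in a class when its CPM (plus 1) differed at least 2-fold, as a median over libraries, from the median of the other classes in the same library, and in the same direction in every library. No p-value stands behind a call. The share of all genes meeting the same rule is the background.

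Genes of the maternally read Dlk1-Dio3 noncoding RNAs also carry microRNAs, which this 3′ assay of polyadenylated RNA does not count. RefSeq places 35 mature microRNAs inside the 3 host genes, 3 in Meg3, 6 in Rian and 26 in Mirg. A set of 6 is shown because the 3 hosts were among the imprinted genes with the most similar class patterns. Capitals mark the seed, bases 2 to 8, which pairs with targets. The 35 have 34 distinct seeds. Only mmu-miR-453 and mmu-miR-496a-5p share one. Both lie in Mirg introns, and mmu-miR-134-5p lies in a Mirg exon. The others shown are mmu-miR-410-3p in Mirg, mmu-miR-370-3p in a Rian intron and mmu-miR-770-5p in a Meg3 exon. Positions are on the plus strand of GRCm38.p6, in the order printed: chr12:109735669-109735692, chr12:109739132-109739152, chr12:109734145-109734166, chr12:109743764-109743784, chr12:109618305-109618326 and chr12:109563710-109563731.
mmu-miR-453: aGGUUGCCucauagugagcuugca
mmu-miR-496a-5p: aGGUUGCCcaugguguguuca
mmu-miR-134-5p: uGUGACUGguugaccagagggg
mmu-miR-410-3p: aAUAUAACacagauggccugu
mmu-miR-370-3p: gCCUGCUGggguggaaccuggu
mmu-miR-770-5p: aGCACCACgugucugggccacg

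Promoter letters were read for 2 places where the counts bear on them. Peg3 and Usp29 are read away from each other, and their levels moved together over classes. The stretch from the start of one to the start of the other, chr7:6730420-6730582 on GRCm38.p6, plus strand, is 163 bases long with 5 CG dinucleotides. Mest had a wide range over classes, although Plagl1, Zim1, Cdkn1c and Dlk1, among others, ranged wider. The 250 bases chr6:30737800-30738049, plus strand, before a RefSeq start of Mest hold 14 CG dinucleotides. Capitals mark TGCCGC, the core of the ZFP57 motif, searched on both strands (GCGGCA is its reverse complement). The Mest window held 2 matches and the Peg3-Usp29 stretch none. Among the Mest windows this one was picked for having the most matches, so its count is no result. The Mest window at chr6:30733256-30733555 held 0. Of 37 RefSeq promoter windows of 300 bases for 25 of the imprinted genes, 10 windows (27%) of 9 genes held the motif, against 11.6% of all 32817 windows. Overlapping windows were counted separately. The Mest windows starting at chr6:30737800 and chr6:30737803 hold the same 2 matches. The windows of these genes are richer in CG, with a median of 13 CG dinucleotides against 7, and TGCCGC itself holds a CG. A match is a run of letters and does not show binding.
Peg3 and Usp29, between their starts: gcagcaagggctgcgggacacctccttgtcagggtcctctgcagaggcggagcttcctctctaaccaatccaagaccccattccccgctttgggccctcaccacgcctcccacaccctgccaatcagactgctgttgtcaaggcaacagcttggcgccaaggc
Mest: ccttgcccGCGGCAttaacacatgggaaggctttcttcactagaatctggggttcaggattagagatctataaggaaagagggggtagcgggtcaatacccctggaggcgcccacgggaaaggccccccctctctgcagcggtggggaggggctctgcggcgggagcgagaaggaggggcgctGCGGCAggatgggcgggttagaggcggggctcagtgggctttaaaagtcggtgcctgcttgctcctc

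Of the 32 imprinted genes, 27 reached 10 CPM in their highest class and 20 reached 50 CPM. The share of all genes reaching these levels was not computed, so these counts only describe the set. Calls were made for the 27 genes with at least 2 CPM over all retained cells. Outside erythroid-like cells, 18 of the 27 were higher in at least 1 class, where 32.8% of all 12494 genes tested were. In at least 1 class 13 of 27 were lower, against 24.6% of all genes, and 20 of 27 were called in either direction, against 39.2%. A number of genes, 11 of 27, were higher in some classes and lower in others, against 18.2% of all genes. The median log2 range over classes without erythroid-like cells was 2.25 for the imprinted genes and 1.24 for all genes. The heat map of levels shows these patterns by class.

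**Figure D1:**
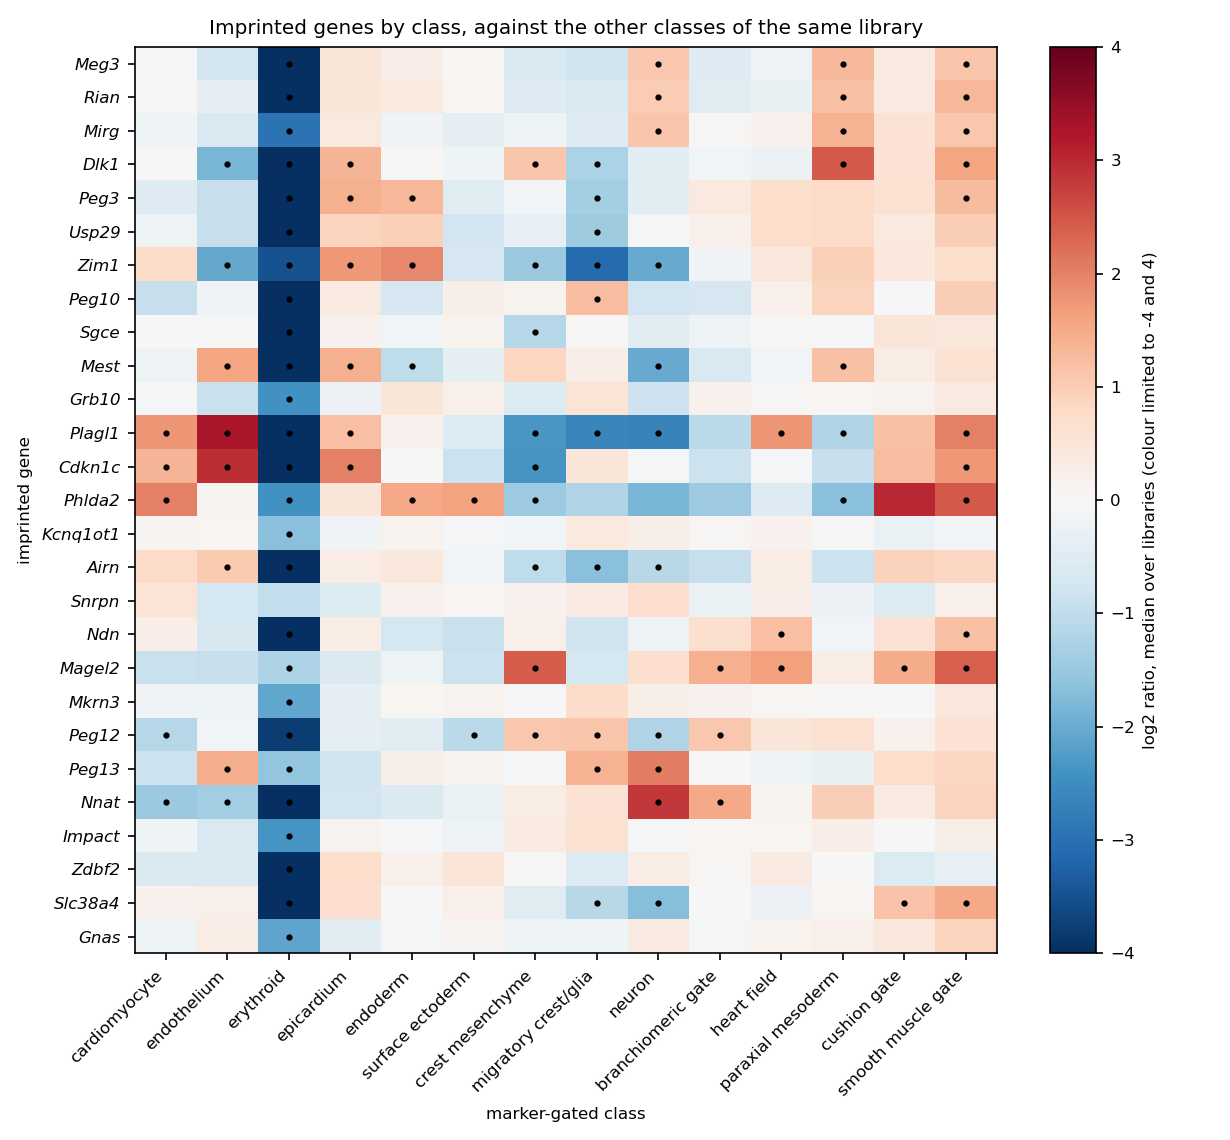
Heat map of the log2 ratio of each imprinted gene (rows) in each class (columns) to the median of the other classes in the same library, as the median over libraries, with the colour limited to -4 and 4 and a dot on each call. Cdkn1c and Plagl1 are highest in endothelium-like cells and Nnat in neuron-like cells, and the erythroid-like column is low for nearly every gene.

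Erythroid-like cells, the circulating primitive red cells, had low levels of nearly all imprinted genes. There, 26 of 27 genes (all but Snrpn) were lower and 0 higher, where 63.3% of all genes were lower and 2.36% higher. In these cells 42.4% of UMIs came from globin and mitochondrial genes, which lowers the CPM of every other gene. Cdkn1c stood at 11.7 CPM (8.85 to 15.1) and Meg3 at 5.04 CPM (3.05 to 11.4). With globin and mitochondrial UMIs left out of the total, Kcnq1ot1 and Magel2 were no longer 2-fold lower (log2 ratios of -0.92 and -0.97). Ascl2, a transcription factor needed in the placenta, had its highest level here at only 1.89 CPM (1.21 to 2.75).

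Growth-restraining genes of the Kcnq1 region differed between classes. Cdkn1c encodes p57, an inhibitor of cyclin-dependent kinases. It was at 4266 CPM in endothelium-like cells (3129 to 6556), 2601 CPM in epicardium-like cells (1816 to 3296), 1470 CPM in cardiomyocyte-like cells (1271 to 1615) and 140 CPM in crest mesenchyme-like cells (131 to 151). The ranges of the endothelium-like and epicardium-like cells overlap, but endothelium-like cells were the higher in 6 of 6 libraries. Both ranges lie above all cardiomyocyte-like libraries, which lie above all crest mesenchyme-like libraries. Against the other classes Cdkn1c was 7.74-fold higher in endothelium-like, 4.01-fold in epicardium-like, 3.30-fold in smooth muscle-gated and 2.54-fold in cardiomyocyte-like cells, and 5.09-fold lower in crest mesenchyme-like cells. An exon of the gene Gm44732 on the opposite strand overlaps 625 bases of Cdkn1c, and whether counting used the strand is not given in the sources used here.

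The shares of cells with a Cdkn1c UMI differed between these classes in part. With every cell thinned to 5000 UMIs, 88.5% of endothelium-like cells, 90.5% of cardiomyocyte-like cells, 40.2% of crest mesenchyme-like cells and 3.95% of erythroid-like cells had a Cdkn1c UMI. Without thinning the shares were 99.0%, 99.5%, 90.3% and 28.2%, at median depths of 38117, 40537, 43041 and 64600 UMIs. The share was thus lower in crest cells. Most endothelium-like and cardiomyocyte-like cells had a Cdkn1c UMI even after thinning, so the share could hardly show their difference in CPM. The erythroid-like share is printed for comparison only. Free RNA in the droplets was not measured, and its part in these shares was not tested.

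Phlda2, which restrains growth of the placenta, was at 16.8 CPM in cardiomyocyte-like cells (13 to 20.5), 15.4 CPM in surface ectoderm-like cells (9.39 to 22.2) and 1.11 CPM in crest mesenchyme-like cells (0.638 to 1.37). All libraries of the first 2 classes lay above all libraries of the crest class. It was 4.0-fold higher in cardiomyocyte-like, 3.06-fold in surface ectoderm-like, 2.95-fold in endoderm-like and 5.5-fold in smooth muscle-gated cells. The endoderm-like call was lost under 4 other choices of cells, among them the stricter gate. In cushion-gated cells its median was 34.4 CPM, but library 3 had 3.03 CPM where the other libraries had 33.2 to 52.2 CPM, and the gene was not called there.

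Kcnq1ot1, the noncoding RNA that silences this region on the paternal chromosome, was nearly flat. Outside erythroid-like cells (92.1 CPM) its class medians ran only from 236 to 388 CPM, and it was called in no other class. So the UMI ratio of Kcnq1ot1 to Cdkn1c followed Cdkn1c, from 0.0725 in endothelium-like cells (0.0494 to 0.08) to 1.90 in crest mesenchyme-like cells (1.63 to 2.09). Kcnq1, a potassium channel gene that overlaps Kcnq1ot1 on the other strand, was too low to be tested. It was at 10.6 CPM in endothelium-like cells (8.81 to 10.9) and 6.02 CPM in cardiomyocyte-like cells (5.71 to 7.20), and at most 1.35 CPM as a median in each other class.

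Plagl1 (also called Zac1), a zinc finger transcription factor that slows growth of cells, was highest in the same endothelium-like cells. Its level was 305 CPM there (286 to 345), 114 CPM in cardiomyocyte-like cells (104 to 135), 111 CPM in heart field and pharyngeal mesoderm-like cells (95.1 to 169) and 8.42 CPM in crest mesenchyme-like cells (5.12 to 14.3). Every endothelium-like library was above every library of the other classes, and the cardiomyocyte-like and heart field-like ranges overlap. Plagl1 was 9.70-fold higher in endothelium-like, 3.39-fold in cardiomyocyte-like, 3.42-fold in heart field-like, 4.01-fold in smooth muscle-gated and 2.28-fold in epicardium-like cells. It was lower in crest mesenchyme-like (5.03-fold), glial and migratory crest-like (6.14-fold) and neuron-like cells (6.31-fold), and also in paraxial mesoderm-like cells (2.28-fold). That call was lost without library 1, 2 or 5, when the smooth muscle-gated class drops out of the comparison, and when that class alone was left out (log2 ratio -0.97). After thinning, 64.7% of endothelium-like cells, 3.63% of crest mesenchyme-like cells and 0.494% of erythroid-like cells had a Plagl1 UMI. Unthinned, these shares were 91.5%, 16.3% and 4.52%, at median depths of 38117, 43041 and 64600 UMIs.

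Grb10, an adaptor that dampens insulin and growth factor signalling, was called in no class but the erythroid-like one. Its class medians outside that class ran from 345 CPM in endothelium-like cells (311 to 371) to 894 CPM in smooth muscle-gated cells (712 to 901). These 2 ranges do not overlap, but neither class was 2-fold from the rest. By class medians, endothelium-like cells were thus highest for Cdkn1c and Plagl1 and, apart from erythroid-like cells, lowest for Grb10.

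The 3 noncoding RNAs Meg3, Rian and Mirg of the Dlk1-Dio3 region were highest together in paraxial mesoderm-like, smooth muscle-gated and neuron-like cells. Meg3 was at 765 CPM in paraxial mesoderm-like cells (722 to 878, 4 libraries), 748 CPM in smooth muscle-gated cells (702 to 793) and 645 CPM in neuron-like cells (492 to 905). It was at 199 CPM in glial and migratory crest-like cells (190 to 212), below all libraries of those 3 classes, whose own ranges overlap. In the same order of classes as the first 3, Rian was at 140 CPM (125 to 175), 143 CPM (134 to 196) and 131 CPM (108 to 143). Mirg was at 27.2 CPM (18 to 32.5), 20.2 CPM (15.1 to 21.4) and 23.2 CPM (16 to 30.7), again with overlapping ranges. Against other classes Meg3, Rian and Mirg were 2.48-fold, 2.23-fold and 2.64-fold higher in paraxial mesoderm-like cells and 2.09-fold, 2.02-fold and 2.16-fold higher in neuron-like cells. The neuron-like calls are close to the threshold: Rian lost it without library 6, and Mirg without library 1 or 5.

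Rian kept a nearly fixed proportion to Meg3. The UMI ratio of Rian to Meg3 had class medians between 0.184 and 0.238 outside erythroid-like cells. Dlk1, a paternally read membrane protein related to Notch ligands and known for holding precursor cells undifferentiated, did not keep such a proportion. Its ratio to Meg3 ran from 0.134 in endothelium-like cells (0.0895 to 0.200) and 0.150 in neuron-like cells to 0.693 in paraxial mesoderm-like cells and 0.906 in crest mesenchyme-like cells (0.782 to 1.12).

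Dlk1 itself was at 555 CPM in paraxial mesoderm-like cells (437 to 572), 208 CPM in epicardium-like cells (146 to 308), 200 CPM in crest mesenchyme-like cells (155 to 309) and 29.4 CPM in endothelium-like cells (15.6 to 53.5). The paraxial libraries were all above the others, the epicardium-like and crest ranges overlap, and all endothelium-like libraries were below them. It was 5.48-fold higher in paraxial mesoderm-like, 2.98-fold in smooth muscle-gated, 2.58-fold in epicardium-like and 2.14-fold in crest mesenchyme-like cells, and lower in endothelium-like (3.59-fold) and glial and migratory crest-like cells (2.42-fold). After thinning, 75.1% of paraxial mesoderm-like cells and 9.65% of endothelium-like cells had a Dlk1 UMI, against 0.988% of erythroid-like cells. Unthinned, they were 95.1%, 25.2% and 7.83%, at median depths of 30516, 38117 and 64600 UMIs. A group of 16 cells that passed the hepatocyte gate, too few for a class, had 1172 Dlk1 UMIs or 2049 CPM (95% Poisson interval 1933 to 2170, counting error only). Rtl1, a retrotransposon-derived gene, reached only 5.91 CPM, also in paraxial mesoderm-like cells.

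Peg3, a zinc finger protein gene read from the paternal copy, and Usp29, its neighbour across the stretch printed above, were highest in epicardium-like, endoderm-like and smooth muscle-gated cells. Peg3 was at 960 CPM in epicardium-like cells (877 to 984), 894 CPM in endoderm-like cells (771 to 1045) and 144 CPM in glial and migratory crest-like cells (120 to 188). The first 2 ranges overlap and both lie above the glial one. Usp29 was at 93.8 CPM (89.5 to 106), 97.9 CPM (74.9 to 125) and 19.6 CPM (4.73 to 28.9) in the same 3 classes, with the same overlap. Against other classes Peg3 was 2.65-fold higher in epicardium-like, 2.50-fold in endoderm-like and 2.38-fold in smooth muscle-gated cells, and 2.56-fold lower in glial and migratory crest-like cells.

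Zim1, a further zinc finger gene of the region, read from the maternal copy, was highest in the same endoderm-like and epicardium-like cells but with a wider range. It was at 41.8 CPM in endoderm-like cells (33.2 to 59.1), 38.3 CPM in epicardium-like cells (30.2 to 44.6) and 0.807 CPM in glial and migratory crest-like cells (0 to 2.84). The first 2 ranges overlap, and all their libraries exceeded the glial ones. Zim1 was 3.76-fold and 3.34-fold higher in the first 2 classes, and 8.40-fold lower in the glial class. It was also lower in endothelium-like (4.15-fold), crest mesenchyme-like (2.79-fold) and neuron-like cells. The UMI ratio of Zim1 to Peg3 ran from 0.0048 in glial and migratory crest-like cells to 0.0591 in cardiomyocyte-like cells.

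Mest, a paternally read hydrolase-like gene found in much of the embryonic mesoderm, was at 1436 CPM in endothelium-like cells (1283 to 1509), 1265 CPM in epicardium-like cells (1127 to 1490), 448 CPM in cardiomyocyte-like cells (400 to 559) and 138 CPM in neuron-like cells (79.9 to 233). The first 2 ranges overlap, the cardiomyocyte-like libraries lay below both, and the neuron-like libraries lay below those. Mest was 3.00-fold higher in endothelium-like, 2.71-fold in epicardium-like and 2.25-fold in paraxial mesoderm-like cells, and 4.04-fold lower in neuron-like cells. Its 2.01-fold lower level in endoderm-like cells fell short of 2-fold without library 3, 4 or 5. A total of 912 bases of Mest exons are shared with exons of Copg2 on the other strand.

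Peg10, a retrotransposon-derived gene needed in the placenta, and Sgce, encoding a sarcoglycan of the muscle membrane complex, start side by side and point apart. The ratio of their levels differed between classes. Peg10 was at 128 CPM in glial and migratory crest-like cells (121 to 157) and 59.9 CPM in crest mesenchyme-like cells (45.9 to 68.6). Sgce was at 52.9 CPM (46.4 to 57.8) and 21.3 CPM (19.3 to 23.9) in these classes and at 47.9 CPM in cardiomyocyte-like cells (44.8 to 52.6). Neither gene's 2 crest ranges overlap. Peg10 was 2.34-fold higher in the glial class and Sgce 2.20-fold lower in crest mesenchyme-like cells. The UMI ratio of Sgce to Peg10 was 0.359 in crest mesenchyme-like cells (0.338 to 0.421) and 1.56 in cardiomyocyte-like cells (1.37 to 2.04). Low ratios were not limited to crest cells. The ratio was 0.374 in glial and migratory crest-like, 0.439 in paraxial mesoderm-like and 0.571 in smooth muscle-gated cells.

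Airn, the long noncoding RNA that runs antisense to Igf2r and silences it in cis, was at 913 CPM in endothelium-like cells (691 to 1107), 867 CPM in cushion-gated cells (779 to 951), 747 CPM in cardiomyocyte-like cells (698 to 785) and 142 CPM in glial and migratory crest-like cells (116 to 149). The first 3 ranges overlap and all lie above the glial one. It was 2.07-fold higher in endothelium-like cells, a call lost without library 3 or 6. The gene was lower in crest mesenchyme-like (2.01-fold), glial (3.21-fold) and neuron-like cells. Airn and Igf2r share no annotated exon bases and are read from opposite strands. Whether counting used introns or the strand is not given in the sources used here. Slc22a3, a transporter gene of the region, was at most 0.962 CPM as a class median.

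Genes of the Prader-Willi region did not share one pattern. Ndn, which restrains growth of precursor cells, was at 246 CPM in smooth muscle-gated cells (230 to 343), 238 CPM in heart field and pharyngeal mesoderm-like cells (157 to 306) and 66.0 CPM in surface ectoderm-like cells (58.5 to 68.5). The first 2 ranges overlap, with smooth muscle-gated cells the higher in 3 of 3 libraries compared, and both lie above the ectoderm. Ndn was 2.24-fold and 2.28-fold higher in these first 2 classes. Magel2, which acts in protein sorting, was low but uneven: 10.9 CPM in crest mesenchyme-like cells (9.04 to 18.0) and 0.595 CPM in cardiomyocyte-like cells (0.361 to 1.04), with no overlap. It was higher in crest mesenchyme-like (5.33-fold), smooth muscle-gated (5.20-fold), heart field-like (3.12-fold), cushion-gated (2.82-fold) and branchiomeric muscle-gated cells (2.70-fold).

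Peg12, a gene of the Frat family of Wnt pathway regulators, was at 35.0 CPM in glial and migratory crest-like cells (28.9 to 37.4), 30.2 CPM in crest mesenchyme-like cells (28.7 to 31.2) and 6.56 CPM in cardiomyocyte-like cells (4.86 to 7.97). The crest ranges overlap and lie above the cardiomyocyte-like one. Peg12 was 2.16-fold and 2.10-fold higher in the crest classes, 2.09-fold higher in branchiomeric muscle-gated cells, and lower in cardiomyocyte-like (2.22-fold), surface ectoderm-like and neuron-like cells. Snrpn, a splicing protein gene, was called in no class, with medians outside erythroid-like cells from 24.1 CPM in endothelium-like cells (20.8 to 25.5) to 57.9 CPM in neuron-like cells (53.0 to 64.3). Mkrn3 reached 6.67 CPM and was called only in erythroid-like cells.

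Nnat, a small membrane protein gene known from the nervous system, was at 1863 CPM in neuron-like cells (1238 to 2307), 893 CPM in branchiomeric muscle-gated cells (473 to 1141), 120 CPM in endothelium-like cells (95.6 to 148) and 113 CPM in cardiomyocyte-like cells (108 to 134). All neuron-like libraries were above all branchiomeric muscle-gated ones, which were above the overlapping ranges of the last 2 classes. Nnat was 7.04-fold and 2.87-fold higher in the first 2 classes, and lower in cardiomyocyte-like (2.82-fold) and endothelium-like cells (2.64-fold). After thinning, 95.2% of neuron-like and 39.7% of cardiomyocyte-like cells had a Nnat UMI, against 3.39% of erythroid-like cells. Unthinned, the shares were 100%, 82.1% and 19%, at median depths of 28232, 40537 and 64600 UMIs. Peg13, a noncoding RNA, was highest in neuron-like cells too, at 12.3 CPM (8.70 to 16.8), and was 4.12-fold higher there, 2.71-fold in endothelium-like and 2.64-fold in glial and migratory crest-like cells. Nap1l5, a nucleosome assembly family gene, was at 7.12 CPM in neuron-like cells (5.59 to 9.86) and at most 2.58 CPM elsewhere.

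Slc38a4, an amino acid transporter gene, was at 197 CPM in smooth muscle-gated cells (190 to 283), 143 CPM in cushion-gated cells (122 to 169) and 19.3 CPM in neuron-like cells (13.6 to 29.3). None of these 3 ranges overlap. The gene was 2.86-fold and 2.20-fold higher in the first 2 classes, and lower in neuron-like (3.25-fold) and glial and migratory crest-like cells (2.18-fold). Gnas, which encodes the stimulatory G protein alpha subunit and other products that these counts do not separate, was at 2642 CPM in smooth muscle-gated cells (2456 to 2805) and from 1061 to 1968 CPM in the other classes but the erythroid-like one. Zdbf2, highest in epicardium-like cells at 95.5 CPM (72.0 to 119), and Impact, a translation regulator highest in glial and migratory crest-like cells at 58.5 CPM (52.0 to 63.5), were called only in erythroid-like cells. The plot of levels by library shows 6 of the genes.

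**Figure D2:**
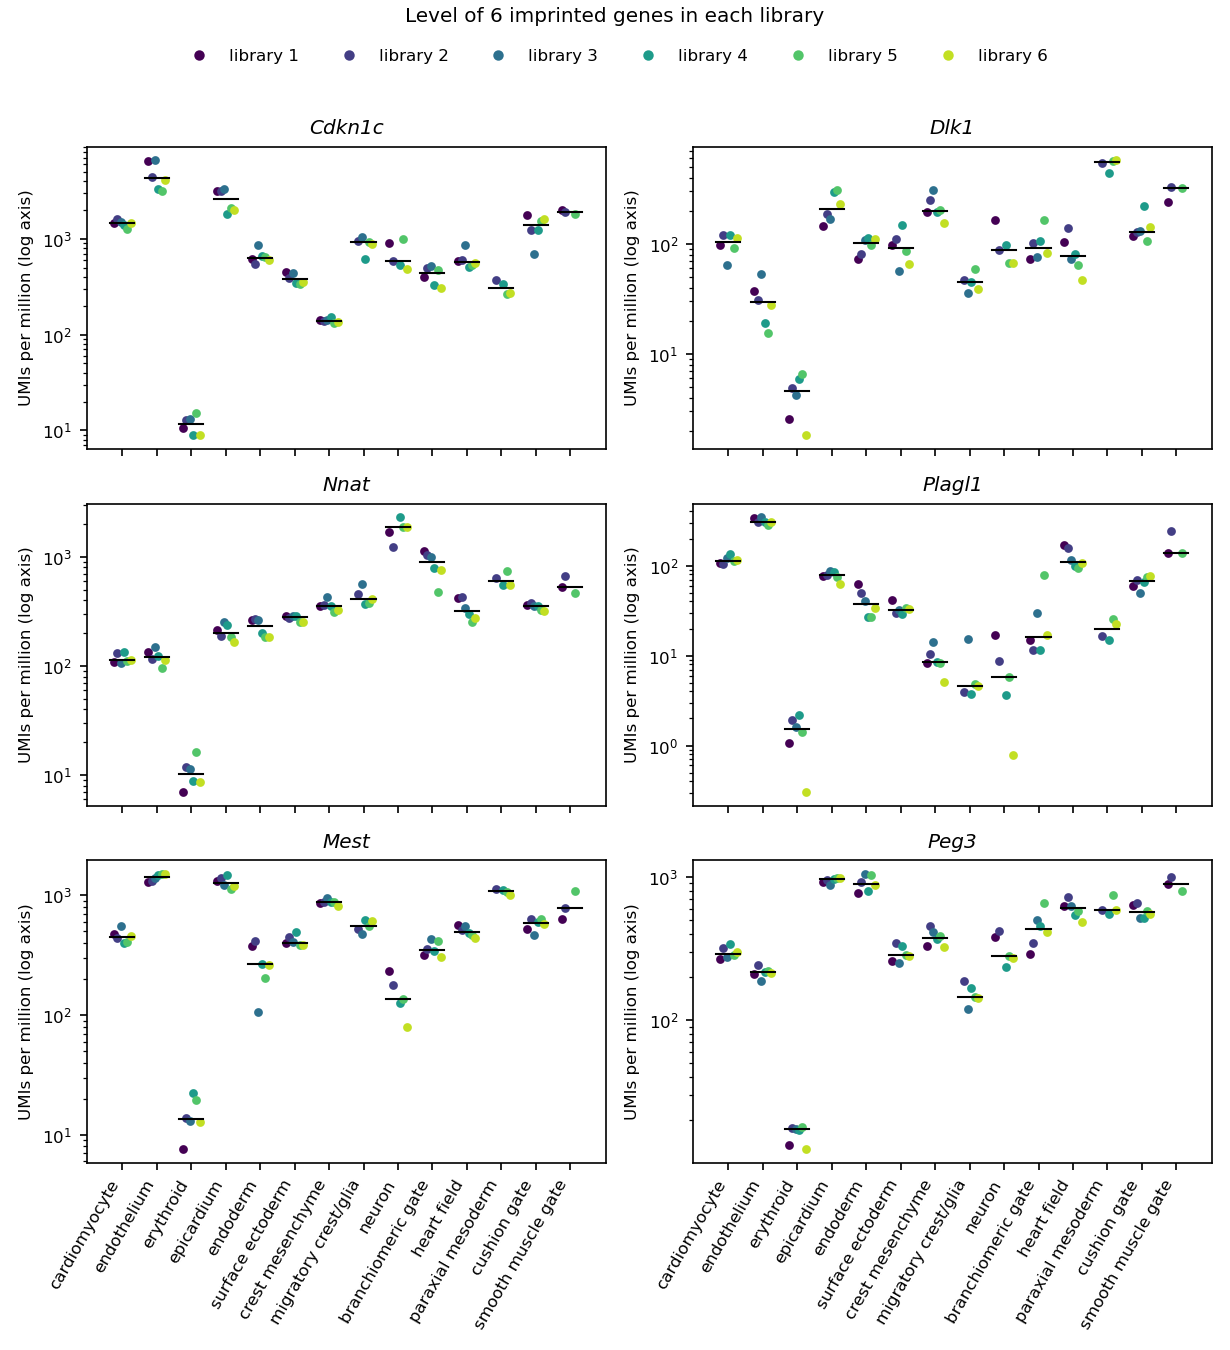
CPM (log axis) of Cdkn1c, Dlk1, Nnat, Plagl1, Mest and Peg3 in each class, 1 point for each library with at least 20 cells of the class and a bar at the median. Cdkn1c endothelium-like libraries sit between 3129 and 6556 CPM and crest mesenchyme-like libraries between 131 and 151 CPM.

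Read by class, smooth muscle-gated cells had the most genes called higher, with 11 of 27 imprinted genes higher and 0 lower, where 7.08% of all genes were higher and 2.11% lower. The median log2 ratio of the imprinted genes there was 0.90, and that of all genes 0.03. These are 116 cells in 3 libraries, and 225 further cells passing this gate were left out because they also passed another. Epicardium-like cells had 6 genes higher and 0 lower (7.31% and 3.42% of all genes), and endothelium-like cells 5 higher and 3 lower (8.28% and 7.53%). In cardiomyocyte-like cells 3 genes were higher and 2 lower (8.77% and 7.98%), so their share of calls is near that of all genes. Crest mesenchyme-like cells had 3 genes higher and 6 lower (2.3% and 5.36%), and glial and migratory crest-like cells 3 higher and 7 lower (3.78% and 5.19%). Neuron-like cells had 5 higher and 6 lower (8.13% and 5.03%), and paraxial mesoderm-like cells 5 higher and 2 lower (3.31% and 1.77%). These counts take each gene as separate, although genes of 1 region can move together. Meg3, Rian and Mirg are all among the higher genes of neuron-like, paraxial mesoderm-like and smooth muscle-gated cells. Dlk1 of the same region is among them in the last 2 classes. Heart field-like cells had 3 higher and 0 lower (4.86% and 0.552%), as had branchiomeric muscle-gated cells (3.95% and 1.58%). Endoderm-like cells had 3 higher and 1 lower (7.71% and 3.09%), and cushion-gated cells 2 higher and 0 lower (6.99% and 1.94%). Surface ectoderm-like cells had 1 each way (8.16% and 2.29%), which is near the background.

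Likeness between genes was described by Pearson's r of log2(CPM + 1) over classes. The 14 classes share libraries, and the erythroid-like class is low for nearly every gene, so r is also given over the other 13. Here the genes are those of at least 10 CPM in their highest class, which adds Kcnq1 to the genes tested above and leaves out Mkrn3. Over 14 classes Meg3 and Rian had the highest r of all pairs of imprinted genes (0.998, and 0.986 without the erythroid-like class), followed in order by Peg3 with Usp29 (0.988 and 0.959) and Meg3 with Mirg (0.953 and 0.904). Of 351 pairs among these 27 genes, 84 (23.9%) had r of at least 0.8, where 11.1% of all gene pairs did. Without the erythroid-like class 9 pairs (2.56%) did, where 1.14% of all pairs did. Of 22 pairs that lie in 1 region, 6 were still at 0.8 or more: the 3 pairs among Meg3, Rian and Mirg, and the 3 pairs among Peg3, Usp29 and Zim1. Cdkn1c and its silencer Kcnq1ot1 had r of -0.03 without the erythroid-like class.

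Some likenesses crossed chromosomes. Plagl1 on chromosome 10 and Airn on chromosome 17 had r of 0.942 without the erythroid-like class, above the value of Meg3 with Mirg there. Among 28 other imprinted genes, the most similar were Igf2r with Airn (0.977 over 14 classes, 0.972 over 13), Igf2r with Plagl1 (0.947 and 0.949) and Igf2 with Airn (0.942 and 0.903). The part of intron reads in the r of Airn and Igf2r was not tested. Over all tested genes, those most like Cdkn1c, Dlk1 and Nnat over the 13 classes were Dusp3 (0.945), Ppfibp2 (0.776) and Mapt (0.936). Over the 13 classes the lowest r among imprinted genes was that of Kcnq1 and Nnat (-0.75), and over all 14 that of Kcnq1 and Magel2 (-0.33). Kcnq1 was at or near 0 in many classes. The heat map of r shows the blocks of the 2 regions.

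**Figure D3:**
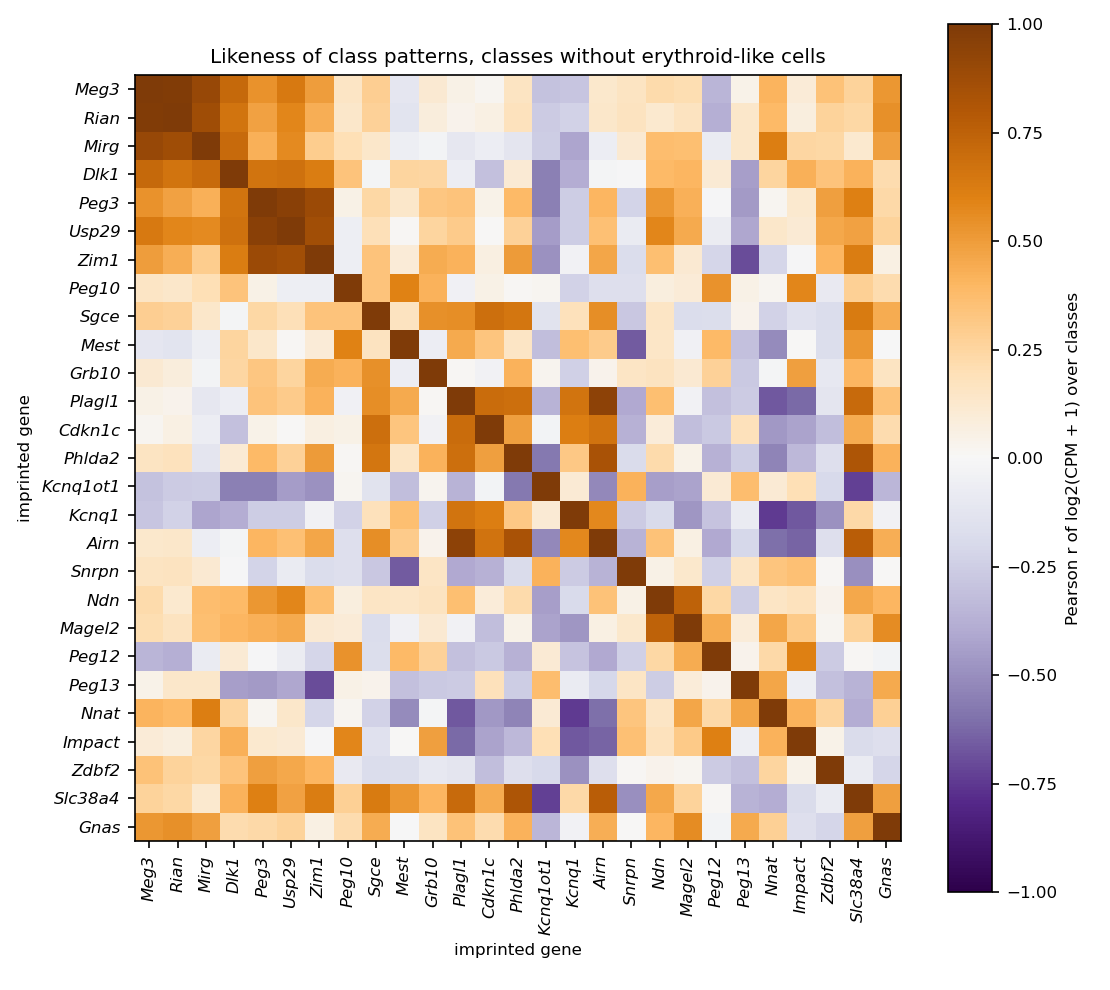
Pearson's r of log2(CPM + 1) over the 13 classes without erythroid-like cells for each pair of 27 imprinted genes. The dark blocks at the upper left are Meg3, Rian and Mirg, and Peg3, Usp29 and Zim1.

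Levels also differed between libraries within a class. In the 10 classes with at least 20 cells in all 6 libraries, and for imprinted genes of at least 10 CPM, the highest library was at least 2 times the lowest in 23 of 209 gene and class pairs (11.0%), where 3.95% of pairs over all genes were. No imprinted gene did so in cardiomyocyte-like cells (0.765% of all genes) or in crest mesenchyme-like cells (1.21%). In branchiomeric muscle-gated cells 7 of 22 did (9.92%), in endoderm-like cells 5 of 23 (6.07%), and in cushion-gated cells 3 of 24 (6.53%). The counts were 2 of 21 in endothelium-like (1.82%) and in surface ectoderm-like cells (1.69%), 2 of 9 in erythroid-like cells (0.978%), 1 of 23 in epicardium-like cells (3.81%) and 1 of 23 in heart field-like cells (5.16%). The treatment of the libraries is not known, and their part in these differences was not tested.

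Dlk1 reached 2-fold in the most classes, 6 of 9, with a median of 2.11-fold, and Phlda2 in 3 of 4 classes with a median of 3.2-fold. In endothelium-like cells of libraries 1 to 6 Dlk1 was at 37.0, 31.1, 53.5, 19, 15.6 and 27.6 CPM. In epicardium-like cells it was at 146, 186, 169, 298, 308 and 231 CPM. Libraries 4 to 6 were thus below libraries 1 to 3 in endothelium-like cells and above them in epicardium-like cells, an order noticed after the values were seen. It did not hold in cardiomyocyte-like cells (96.9, 121, 63.8, 120, 91.8 and 113 CPM) or in crest mesenchyme-like cells. Cdkn1c was at 6547, 4428, 6556, 3271, 3129 and 4104 CPM in endothelium-like cells and at 3159, 3114, 3296, 1816, 2087 and 1981 CPM in epicardium-like cells. Libraries 1 to 3 lay above libraries 4 to 6 in both classes. That was also the order in cardiomyocyte-like, surface ectoderm-like and heart field-like cells and not in the other 5 classes compared. This order too was noticed after the values were seen. The share of all genes showing either order is not given, so neither can be read as particular to these genes or as an effect of treatment. Retained cells with a shared barcode sequence numbered 174, 399, 75, 794, 897 and 551 in libraries 1 to 6. Their part in these orders was not tested.

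The cell make-up of the libraries differs too. Heart field and pharyngeal mesoderm-like cells numbered 124, 107, 197, 294, 452 and 337 in libraries 1 to 6, and glial and migratory crest-like cells 19, 33, 25, 87, 122 and 86. Crest mesenchyme-like cells went the other way, with 953, 759, 714, 522, 609 and 682. Cardiomyocyte-like cells, with 734, 669, 362, 442, 591 and 491, followed neither order. All cells in 1 class numbered 3695, 3152, 2728, 2630, 3651 and 3064. The part of the cell make-up in the levels was not tested. Single libraries stood apart in other classes. Plagl1 in branchiomeric muscle-gated cells was at 77.9 CPM in library 5 and 11.5 to 30.1 CPM in the others, and Mest in endoderm-like cells was lowest in library 3, 3.94-fold below the highest, with 203 to 415 CPM in the others. The plot of library ranges shows all classes.

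**Figure D4:**
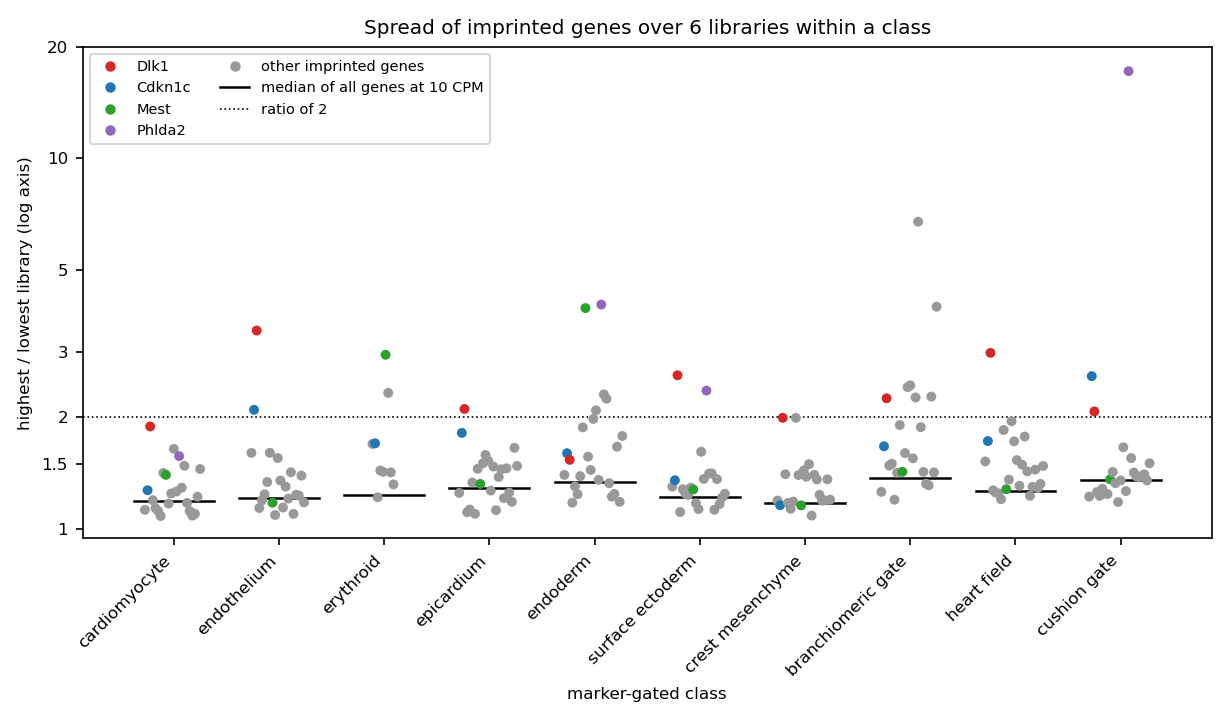
Ratio of the highest to the lowest library for each imprinted gene of at least 10 CPM (points) in the 10 classes with all 6 libraries, with a dotted line at 2-fold and a black bar at the median of all genes of that level. Dlk1 lies above the line in 6 classes, and Phlda2 in cushion-gated cells is the farthest at 17.2-fold.

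Cdkn1c codes for a cell cycle inhibitor, so the cell cycle genes of cells with and without it were compared within each class and library, after thinning to 5000 UMIs. The difference is the log2 ratio of the summed G2M gene CPM. It was lower in every library in 3 of 7 classes with enough cells of both kinds. No share of all genes is given for this rule, which sets no minimum fold. Endothelium-like cells with Cdkn1c were at -0.29 (-0.34 to -0.14, 5 libraries), endoderm-like cells at -0.39 (-0.43 to -0.31, 3 libraries) and heart field-like cells at -0.19 (-0.20 to -0.09, 4 libraries). In cardiomyocyte-like cells 3 of 6 libraries were lower, and the median was 0.01. The direction was not particular to Cdkn1c. Split by Airn, G2M values were lower in 6 of 6 libraries of cardiomyocyte-like, surface ectoderm-like, crest mesenchyme-like and branchiomeric muscle-gated cells. They were lower in 5 of 6 libraries of endothelium-like, 4 of 5 of heart field-like and 2 of 3 of endoderm-like cells. In the Cdkn1c split, S phase genes did not always follow. They were lower in every library in endothelium-like (-0.05), endoderm-like (-0.20), crest mesenchyme-like (-0.03) and branchiomeric muscle-gated cells (-0.09). In surface ectoderm-like cells they were lower in 5 of 6 libraries and in heart field-like cells in 2 of 4. In cardiomyocyte-like cells they were higher in 4 of 6, at 0.32 (-0.23 to 0.47). Of 2 related inhibitor genes that are not imprinted, Cdkn1a was at -0.25 (lower in 5 of 5 libraries) in cardiomyocyte-like, -0.40 (4 of 4) in endoderm-like and -0.12 (5 of 6) in surface ectoderm-like cells, and Cdkn1b had the opposite direction. Cells with a Cdkn1b UMI had higher G2M values in every library of all 7 classes measured, at 0.40 (0.26 to 0.60, 6 libraries) in cardiomyocyte-like cells and 0.56 (0.11 to 0.59, 3 libraries) in endoderm-like cells. Thinned to 10000 UMIs, 0 of 3 classes with enough cells met the rule. A comparison of cells at or above the upper quartile of Cdkn1c UMIs with cells at or below the lower one, chosen after the data were seen, gave lower G2M values in every library in 5 of 9 classes. This count too has no share of all genes beside it. Ties make these groups larger than 25% of cells, up to all cells in crest mesenchyme-like cells, where the split is the same as before. Heart field-like cells were lower in 5 of 6 libraries and not among the 5 classes. The G2M difference was -0.68 in epicardium-like cells (-0.87 to -0.47) and -0.41 in endothelium-like cells (-0.57 to -0.12). The S phase difference was -0.34 in epicardium-like cells (-0.63 to -0.10) and 0.15 in endothelium-like cells (-0.09 to 0.19).

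The same split was made for every imprinted gene with enough cells. A gene met the rule when the G2M difference was at least 1.2-fold and in the same direction in all libraries. In cardiomyocyte-like cells, 1 of 22 imprinted genes met it upwards and 2 downwards, where 5.42% and 6.7% of all genes did. That is near the background. The gene was Mest, singled out after its values were seen. Its G2M difference was 0.63 (0.46 to 0.68, higher in 6 of 6 libraries), with 5503 CPM of G2M genes in the 1656 cells with a Mest UMI and 3521 CPM in the 1632 cells without one. Its S phase difference was 0.66 (0.50 to 0.72). Meg3 (-0.29) and Airn (-0.54) were lower in 6 of 6 libraries. In endothelium-like cells Mest met the rule upwards (1 of 20, against 2.75%, in 3 libraries) and Cdkn1c downwards (1 of 20, against 1.53%). Rian, Cdkn1c and Impact met it downwards in endoderm-like cells (3 of 18, against 2.55%), and Impact in surface ectoderm-like cells (1 of 20, against 1.81%). No imprinted gene met it in either direction in the other 8 classes measured, where the background was between 0.0109% and 5.67%. The plot of the split shows each library.

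**Figure D5:**
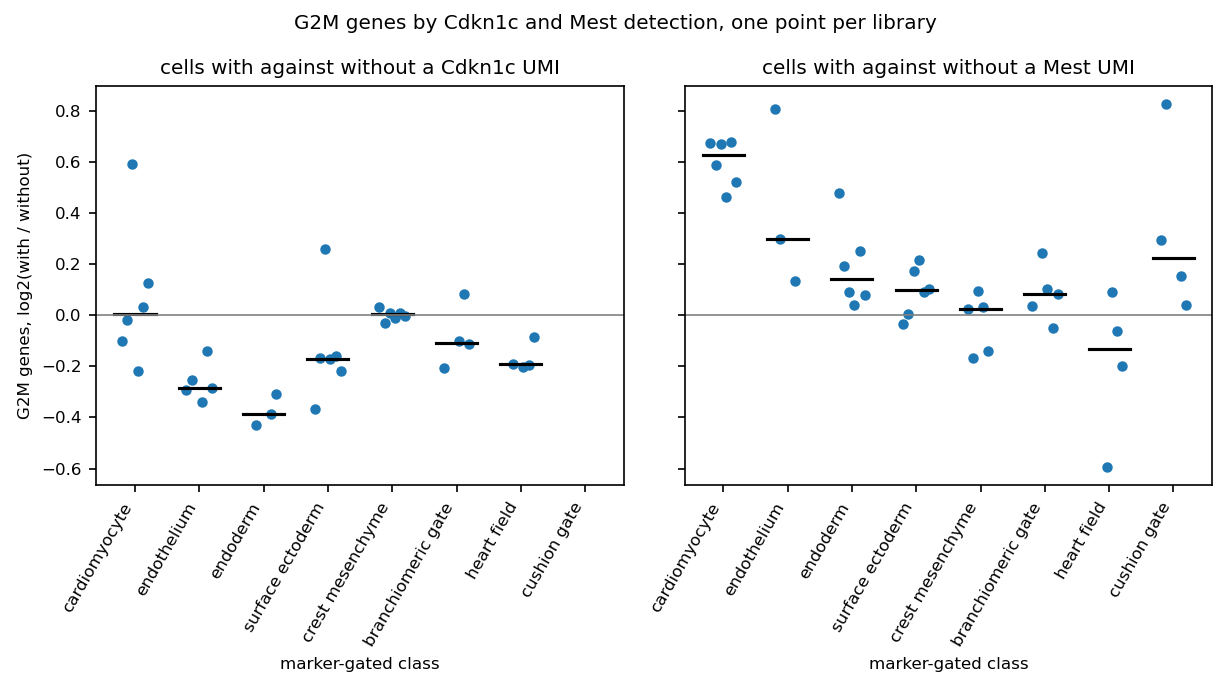
Log2 ratio of summed G2M gene CPM in cells with a UMI of the gene to cells without one, after thinning to 5000 UMIs, for Cdkn1c and Mest, with 1 point for each library, a bar at the median and a line at 0. Mest points of cardiomyocyte-like cells lie between 0.46 and 0.68, and Cdkn1c points of the same cells lie on both sides of 0.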

How the data were processed

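The authors deposited 1 pooled matrix of UMI counts, whole numbers per gene and barcode made, per the file headers, with Cell Ranger 5.0.0, together with a gene list and a barcode list. The build mm10 is named in the submitters' processing notes. Whether Cell Ranger counted introns or used the strand is not given in the sources used here. UMIs were summed per class and library and divided by the total (CPM) in Python 3.11.15 with numpy 2.4.6 and pandas 2.3.3. Cells needed 2500 genes and at most 10% mitochondrial UMIs. A pseudocount of 1 CPM was added before ratios. A class in a library needed 20 cells, and a gene 2 CPM over all retained cells to be tested. The 135 marker genes were kept out of the tests. Doublets were not removed by score in the main values. In an alternative the 2564 cells (7.13%) with the highest Scrublet-type scores were left out. Their number was set in each library by an assumed rate and is not a measured share of doublets. No p-value was computed, since the libraries of the pooled matrix have no map to samples and were not treated as replicates.

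Imprinted genes and gene lists were chosen with earlier results of these data known. Gate thresholds and their order were set after marker counts, overlaps and leading genes had been seen. Library values, mostly as the lowest, median and highest, are given in the main classes for genes that reach 50 CPM in their highest class or are called in a class; pairs named are the 3 most similar of each kind. The CPM and split scripts were tested on simulated data. Gene positions are from GENCODE M21 (GRCm38), and microRNA and promoter sequences from RefSeq. Impact is not among the promoters searched. Sources used here have no promoter window for Cdkn1c, Rtl1, Peg10, Sgce, Kcnq1 and Peg13. Intervals cover counting error only.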

Additional observations from a re-analysis of the deposited data

How the results depend on the processing

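The numbers of genes called higher (18) and lower (13) outside erythroid-like cells were recomputed under 2 other cell filters, a stricter gate, totals without mitochondrial and globin genes, no shared barcode sequences, no high doublet scores, summed libraries and other thresholds. At 1.5-fold 24 genes were higher and 23 lower, where 53.8% and 52.0% of all genes were. At 3-fold 8 were higher and 8 lower, where 20.5% and 10.0% of all genes were. Leaving out each library in turn gave 17 to 18 higher and 13 to 14 lower. Of 107 gene and class calls, none reversed under any of these settings. The stricter gate kept 80, lost 9 and left 18 without a value, and 3-fold kept 54. The calls lost with the stricter gate were Peg12 in cardiomyocyte-like, surface ectoderm-like and neuron-like cells, Airn in endothelium-like, Plagl1 in epicardium-like, Phlda2 in endoderm-like, Dlk1 in glial and migratory crest-like, and Magel2 in heart field-like and cushion-gated cells. The endoderm-like Phlda2 call was lost also with the 4000-gene filter, without shared barcode sequences and without high doublet scores. The 4000-gene filter lost 4 calls in all, and the filter of 1000 genes and 20% mitochondrial UMIs lost 1. Summed libraries lost 2 calls, among them Peg12 in crest mesenchyme-like cells. Leaving out library 5 lost 5 calls, among them Peg12 in surface ectoderm-like cells. Not every lost call is named here. The smooth muscle-gated class, with 11 calls, has no value without library 1, 2 or 5; leaving the class out, a choice made after seeing the data, kept 18 higher and 13 lower. The number of pairs with r of at least 0.8 fell from 84 to 9 without the erythroid-like class. The cell cycle count of 3 of 7 classes became 0 of the 3 classes that could be measured with thinning to 10000 UMIs, 5 of 9 with the split at the quartiles of Cdkn1c UMIs (chosen after seeing the data, with ties that enlarge the groups, and without heart field-like cells among the 5), and 2 to 4 without each library in turn. None of these cell cycle counts has a share of all genes beside it. Pairs of gene and class at 2-fold between libraries numbered 19 to 29 under the alternatives, against 23. No paired analysis was possible because the barcodes carry a library number that no file used here ties to a sample or its replicate number. Depth limits the low genes: Rtl1, Kcnq1, Ascl2, Slc22a3 and Nap1l5 were under 2 CPM over all cells and were not tested.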

Other observations

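A further list of 40 imprinted genes, of which 39 were found and 30 tested, gave 17 genes higher and 10 lower in at least 1 class without erythroid-like cells, where 32.8% and 24.6% of all genes tested were. H19, the maternally read noncoding RNA next to Igf2, had the highest level of that list, 1478 CPM in smooth muscle-gated cells (1221 to 1574). Slc22a2, an organic cation transporter gene, had the lowest highest level, 0.460 CPM. The UMI ratio of Igf2, the paternally read growth factor, to H19 had class medians from 0.331 in glial and migratory crest-like cells to 1.38 in cardiomyocyte-like cells, and was 0.0355 in erythroid-like cells. In the erythroid-like class H19 was still at 293 CPM (245 to 332) where Igf2 was between 7.17 and 13.1 CPM.

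Of 10 genes that maintain imprints or the methylation behind them, 9 were tested. Outside erythroid-like cells, 1 was higher in a class and 2 were lower, where 32.8% and 24.6% of all genes were. Both lower genes were so in cardiomyocyte-like cells (7.98% of all genes). Trim28, the partner of ZFP57, had the highest level of the list, 233 CPM in crest mesenchyme-like cells. Zfp57, the protein that reads the methylated motif, was highest in epicardium-like cells at 42.1 CPM, and Dppa3, known from egg and early embryo, had a median of 0 in every class.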
